A study of Chrysanthemum x morifolium with 6 samples.

Results

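The HD-ZIP proteins of class I, II and IV were examined in roots of the chrysanthemum cultivar jinba (Chrysanthemum x morifolium) watered with salt. Members were the clusters (assembled transcript sequences) that the authors placed in the homeobox family HB and whose best Swiss-Prot match is a homeobox-leucine zipper protein of a flowering plant. The proteins of HD-ZIP class III were left out. The rule found 66 clusters of the 10744 in the deposited table of regulators, under 19 protein names, and 270 clusters of the table are in family HB. Class I holds 29 clusters under 10 names, class II holds 30 under 5 names and class IV holds 7 under 4 names. The names are those of the best match and do not establish orthology, and clusters under 1 name can be alleles, related gene copies or fragments that share reads.

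Both groups were roots of 1-month-old greenhouse seedlings of 1 cultivar, grown with a 16 h photoperiod. The control group (3 libraries) was watered with purified water and the salt group (3 libraries) with 100 mM salt water, and all roots were taken 24 h after treatment. The labels name no mutant, transgene or other agent, and call the libraries of each group biological replicates. The stated topic of the series is salt tolerance of the root.

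HD-ZIP proteins occur in plants alone and join a homeodomain, which binds DNA, to a leucine zipper, through which a pair of them binds together. In Arabidopsis many class I proteins act in responses to water deficit and abscisic acid, the hormone made under drought and salt. Class II proteins act in shade avoidance and auxin responses, and class IV proteins, which also carry a START domain (a fold known from lipid binding), shape epidermal cells such as root hairs and leaf hairs. The deposited domain annotation held a START domain in 4 of 7 class IV clusters, and in 0 of 29 class I and 0 of 30 class II clusters. It held the HD-ZIP protein N terminus, a class II domain, in 8 of 30 class II clusters and in 0 clusters of the other classes. A homeobox was annotated in 28 class I, 24 class II and 7 class IV clusters. Whether the clusters without one are fragments was not tested. Cluster length ran from 338 to 1406 bases in class I, from 614 to 1978 in class II and from 369 to 3320 in class IV.

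Levels are CPM, the expected counts per M (mega) of effective library, which is the recovered depth times a composition factor, unless FPKM, the deposited level per length, is named. Recovered depth ran from 15.9 to 20.1 M fragments among control libraries and from 12.8 to 16.1 M among salt libraries, and the members held 8198 to 10099 counts per control library and 4108 to 5202 per salt library. Clusters whose Swiss-Prot match lies outside flowering plants took 4.01% ± 0.017 of the counts in the table of regulators in the control group (SD, n = 3). In the salt group they took 10.2% ± 2.09, and the share was 7.80% for salt 1, 11.5% for salt 2 and 11.3% for salt 3. A best match outside flowering plants does not establish which organism a cluster came from. The part of these clusters in the results below was not tested. Each main result is also given with a second composition factor ("flowering plant scaling"), from the counts of the 6606 flowering plant clusters in the table of regulators. The main factor came from the FPKM of all 469059 clusters, so the 2 scalings differ in more than the clusters matched outside flowering plants. Flowering plant scaling moved the median over every tested cluster up by 0.53 on the log2 scale, from -0.36 to 0.17. Of the root markers, 13 protein names were found, among them SCARECROW, SHORT-ROOT, JACKDAW and WUSCHEL-related homeobox 5, and they summed to 194 to 196 CPM in control and 131 to 132 in salt. In mean FPKM the markers AIL1, AIL6, AIL7 and PLT2 stood higher in salt, and the other names stood lower. PLT2 went from 1.82 to 4.39 FPKM and AIL6 from 12.7 to 17.7, and the higher calls given next were in these names. Of 34 root marker clusters tested, 2 were called higher and 11 lower, against 23.9% and 29.3% of all tested clusters. Under flowering plant scaling 3 of 33 were called higher and 4 lower, against 33.5% and 16.5%, and their part in the results was not tested either. Shoot and flower markers had 4 names (YABBY and SEPALLATA) and summed to 2.19 to 2.69 CPM in control and 1.42 to 1.80 in salt. In bulk roots, fewer cells of a type and less RNA per cell cannot be told apart.

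In salt-watered roots most of the measurable HD-ZIP clusters stood lower than in control roots: 36 of the 44 tested had a log2 fold change below 0, against 59.2% of all tested clusters. Under flowering plant scaling 11 of these stood above 0, and 24 of 43 tested members stood below 0, against 45.04% of all tested clusters. The japonica-named HOX6 of class I, HAT22 and HAT14 of class II and GLABRA 2 and ANTHOCYANINLESS 2 of class IV fell by more than 2-fold. They were called lower under both scalings, while ATHB-52 of class I and the weakly matched ROC4 cluster of class IV rose. The most abundant name, HAT5, fell little in sum and was not called with flowering plant scaling, and the ATHB-7, ATHB-13, ATHB-16 and HAT4 sums did not pass the test. With flowering plant scaling the HAT4 and ATHB-13 sums were called higher. Summed over all 66 clusters, the level was 481, 498 and 485 CPM in control 1 to 3 and 369, 337 and 334 CPM in salt 1 to 3. The groups did not overlap.

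By class, class I summed to 379, 393 and 390 CPM in the control libraries and 323, 285 and 288 CPM in the salt libraries. Class II summed to 89.8, 92.9 and 85.5 CPM in control and 41.2, 41.8 and 40.2 CPM in salt, so its salt level was 0.46 of control. Class IV summed to 12.5, 12.3 and 9.93 CPM in control and 4.83, 9.87 and 5.69 CPM in salt. All classes stood lower in every salt library than in any control library, although in class IV salt 2 came close to control 3. The weakly matched ROC4 cluster held 6.95 of the 9.87 CPM of class IV in salt 2, and 0.410 of the 9.93 CPM in control 3. Class I made up 79.3% ± 0.90 of the HD-ZIP CPM in control and 86.1% ± 1.45 in salt (SD, n = 3), and class II made up 18.3% ± 0.61 and 11.9% ± 0.65. No test was made on these sums.

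Each cluster was tested with edgeR's quasi-likelihood test, and a cluster was called at a Benjamini-Hochberg adjusted p under 0.05 over all clusters tested in the table. Of the 66 members, 44 passed the filter on low counts, and of those 3 were called higher and 19 lower in salt. Among all 5284 clusters tested, 23.9% were called higher and 29.3% lower. The median log2 fold change was -0.87 over the 44 tested members and -0.36 over all tested clusters. Scaled over flowering plant clusters, 43 members were tested, and 7 were called higher and 12 lower, against 33.5% and 16.5% of all clusters, and the members' median was -0.52 against 0.17. Of the 19 lower calls, 12 were also lower calls there, as were 3 of 3 higher calls, and 1 lower call (HAT5 Cluster-71316.170762) became a higher call. In 23 tested members every salt library stood below every control library and in 3 every salt library stood above, against 39.6% and 27.6% of all tested clusters.

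The 22 members that failed the filter had group means up to 1.19 CPM. In 20 of them the mean was lower in salt, in 1 it was higher and in 1 no library had a count. Of the tested members, 3 reached the filter level of 0.616 CPM in control libraries alone, 0 in salt libraries alone and 25 in all 6 libraries. A member that passed through control alone had to be lower in salt. These 3 (ATHB-52 Cluster-71316.165152, HAT14 Cluster-71316.222614 and ANTHOCYANINLESS 2 Cluster-106285.0) are among the 19 lower calls, which leaves 16. The filter asked for that level in 3 libraries. Some of the 16 reached it in every control library but not in every salt library, so they passed on their control level. They are ATHB-6 Cluster-71316.202057, HOX6 Cluster-71316.236273, HAT22 Cluster-71316.71401 and Cluster-71316.291645, and GLABRA 2 Cluster-71316.147398 and Cluster-71316.94748. For these a lower call was favoured by the filter. In the authors' deposited table, 3 members were marked UP and 14 DOWN, against 13.5% and 10.2% of all its clusters. Of these 17, 15 were called in the same direction here, 2 were not tested here and 0 were called in the opposite direction.

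**Figure D1:**
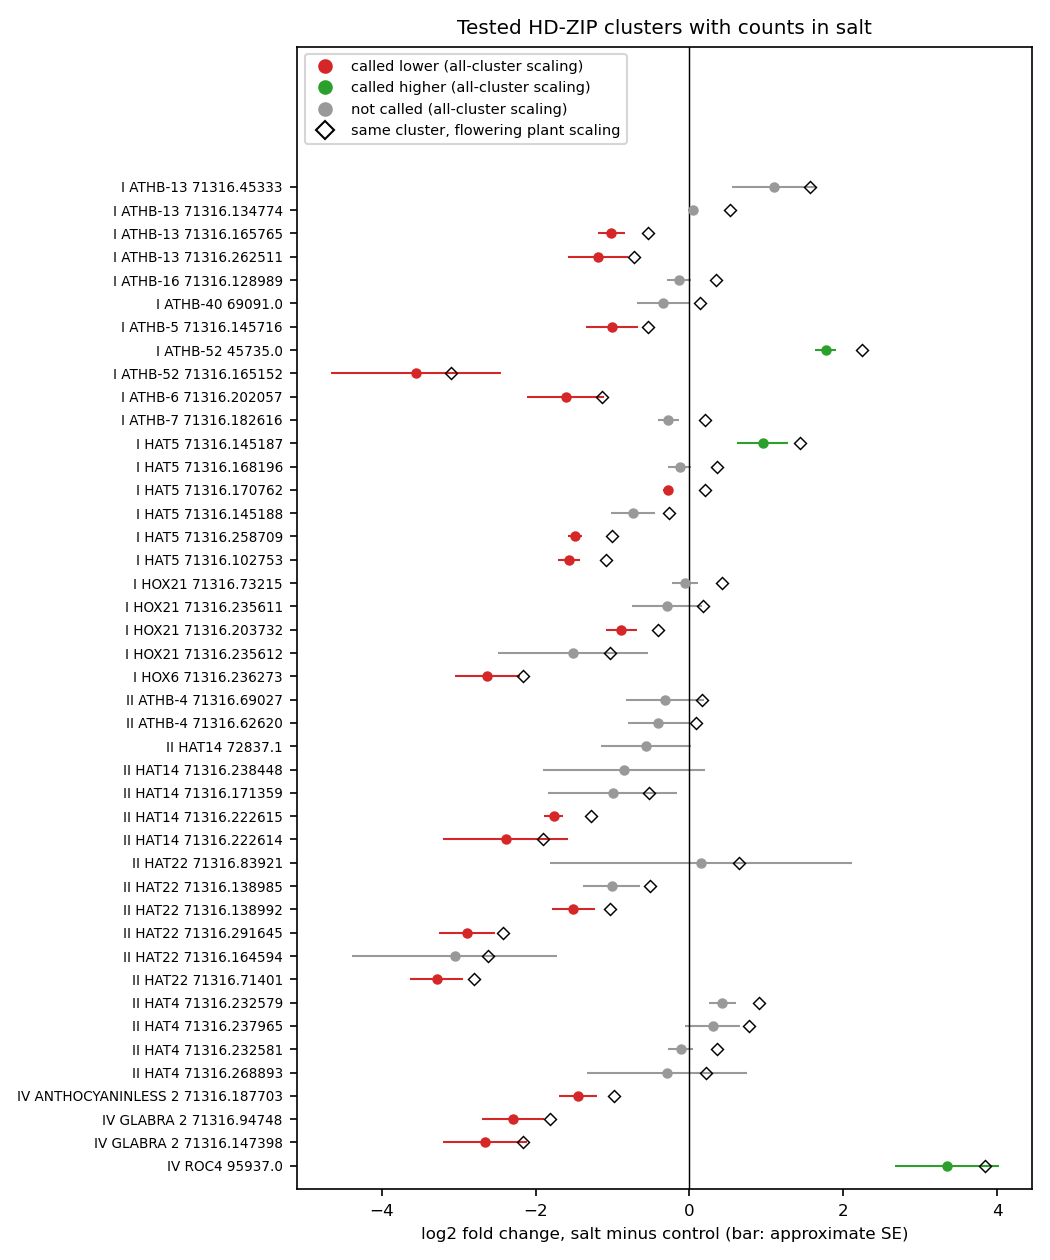
Log2 fold change (salt minus control, horizontal axis) of 43 tested HD-ZIP clusters, each row a cluster with its class and protein name; circles are from the all-cluster scaling with bars of 1 approximate SE, and open diamonds from the flowering plant scaling. Most circles lie left of 0, ROC4 and ATHB-52 Cluster-45735.0 lie to the right of it, and the diamonds stand to the right of their circles; the cluster with no count in salt is not drawn.

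Because reads can pass between clusters of 1 name, counts were also summed per protein name and species, and all such sums in the table were tested in a fit of their own. Of 21 HD-ZIP sums, 18 passed the filter, and 2 were called higher and 9 lower, against 37.0% and 42.3% of all 1604 sums tested. With flowering plant scaling 5 were called higher and 5 lower, against 48.5% and 26.0%. The lower calls under both scalings were HAT22, HAT14, HOX6, GLABRA 2 and ANTHOCYANINLESS 2, and the higher calls under both were ATHB-52 and ROC4.

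**Figure D2:**
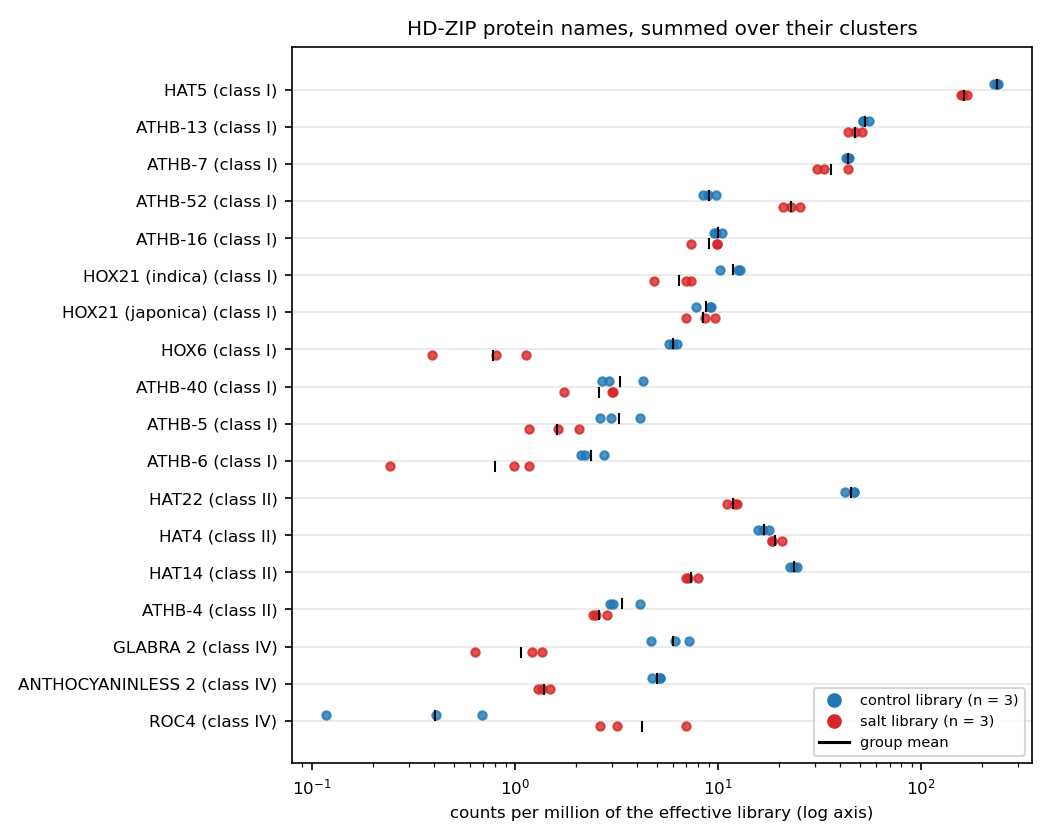
CPM per library (log axis) of the 18 tested HD-ZIP protein name sums, control in blue and salt in red, with a black tick at each group mean (n = 3). HAT22, HAT14, HOX6, GLABRA 2 and ANTHOCYANINLESS 2 show salt libraries below all control libraries by a wide gap, and ATHB-52 and ROC4 show them above.

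Per length, HAT5 was the most abundant name in control at 260 ± 9.91 FPKM, summed over its clusters (SD, n = 3). ATHB-13 at 50.2 ± 3.27 FPKM, HAT22 at 49.8 ± 2.55 FPKM and ATHB-7 at 48.8 ± 1.57 FPKM followed, and these neighbours did not differ beyond their spread. In salt the order after HAT5, at 155 ± 5.91 FPKM, was ATHB-52 at 47.4 ± 5.22, ATHB-13 at 40.3 ± 3.73, HAT4 at 37.9 ± 2.82 and ATHB-7 at 36.9 ± 7.15 FPKM. HAT22 had dropped to 13.0 ± 1.48 FPKM. Of these, ATHB-13, HAT4 and ATHB-7 did not differ from their neighbours beyond the spread.

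In class I, 22 of 29 clusters were tested, 2 were called higher and 10 lower, against 23.9% and 29.3% of all tested clusters, and the median log2 fold change was -0.54. Under flowering plant scaling 5 of 23 tested were called higher and 4 lower, against 33.5% and 16.5%. Without control 2 or without control 3 the lower calls numbered 6. The higher calls numbered 1 without control 1, control 2, salt 2 or salt 3.

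HAT5 (ATHB-1), a class I activator known in Arabidopsis for leaf development and seedling growth, had 9 clusters. Its sum was 228, 240 and 237 CPM in control and 169, 157 and 161 CPM in salt. The groups did not overlap and the control mean was 1.45 times the salt mean. The log2 fold change was -0.53 ± 0.06 (SE) with an edgeR adjusted p of 1.2e-05, but with flowering plant scaling it was -0.05 with an adjusted p of 0.23.

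The HAT5 clusters moved apart. Cluster-71316.258709, with a match score of 363, had 41.2, 40.5 and 45.9 CPM in control and 15.8, 14.2 and 15.5 CPM in salt, without overlap. Cluster-71316.102753, with a score of 377, had 24.2, 22.5 and 22.6 CPM in control and 8.80, 6.36 and 8.29 CPM in salt. Their log2 fold changes were -1.49 ± 0.09 and -1.56 ± 0.14 (SE), with edgeR adjusted p of 0.00010 and 0.00038, and both were also lower calls with flowering plant scaling. Cluster-71316.258709 is named outside the naming rule, after its values were seen. Cluster-71316.170762, with a score of 325, had 50.2, 53.2 and 51.8 CPM in control and 44.1, 42.3 and 41.5 CPM in salt. Its groups did not overlap, but its call turned with the scaling: the log2 fold change was -0.28 with an edgeR adjusted p of 0.011, and 0.20 with an adjusted p of 0.021 over flowering plant clusters. The sum of the clusters with a score of 609 was 48.8, 58.2 and 70.0 CPM in control and 56.2, 73.5 and 55.5 CPM in salt, with overlap. Its log2 fold change was 0.07 ± 0.15 (SE) with an edgeR adjusted p of 0.72, or 0.55 with an adjusted p of 0.018 with flowering plant scaling.

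Within that score the clusters differed. Cluster-71316.145187 alone had 6.64, 5.89 and 11.8 CPM in control and 11.7, 21.3 and 14.1 CPM in salt, and the groups overlapped. It was called higher with a log2 fold change of 0.95 ± 0.33 (SE) at an edgeR adjusted p of 0.0499, just under the threshold, while Cluster-71316.168196 with the same score was at 42.1, 48.8 and 58.2 CPM in control and 42.7, 52.2 and 41.4 CPM in salt. The call on Cluster-71316.145187 was lost without control 1, control 2, salt 2 or salt 3, with adjusted p from 0.083 to 0.16. Cluster-71316.145188, with a score of 627 and the highest control mean of any member, had 63.7, 65.5 and 46.9 CPM in control and 44.2, 21.0 and 40.7 CPM in salt. Its groups did not overlap, but the log2 fold change of -0.74 ± 0.29 (SE) did not pass, with an edgeR adjusted p of 0.068, and it passed without salt 1 with an adjusted p of 0.049.

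ATHB-52, known in Arabidopsis for seedling growth in light and for root growth under ethylene and auxin, rose. The sum of its 3 clusters was 8.91, 8.43 and 9.73 CPM in control and 25.4, 20.8 and 22.8 CPM in salt, without overlap. The salt mean was 2.55 times the control mean, and the log2 fold change was 1.35 ± 0.12 (SE) with an edgeR adjusted p of 3.4e-06. Scaled over flowering plant clusters, it was 1.83 with an adjusted p of 7.8e-07. Cluster-45735.0 carried the rise, from 6.39, 6.06 and 7.39 CPM in control to 24.9, 20.3 and 22.5 CPM in salt, with a log2 fold change of 1.77 ± 0.13 (SE) and an edgeR adjusted p of 0.00020. The other two clusters, both with a score of 257, went the other way. Their sum was 2.52, 2.37 and 2.34 CPM in control and 0.497, 0.520 and 0.325 CPM in salt, without overlap, and its log2 fold change was -2.40 ± 0.34 (SE) with an edgeR adjusted p of 0.00037. This sum passed the filter through control libraries alone, so it had to be lower.

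HOX6 is named for a rice class I protein, and the NR match of all 3 of its clusters is ATHB-12-like, ATHB-12 being an Arabidopsis class I gene induced by abscisic acid and water deficit. The sum of the japonica-named pair was 5.73, 6.28 and 6.01 CPM in control and 1.14, 0.390 and 0.810 CPM in salt. The groups did not overlap, and the control mean was 7.71 times the salt mean. Salt 2 lay under the filter level of 0.616 CPM, so the sum passed on its control level. The log2 fold change was -2.95 ± 0.31 (SE) with an edgeR adjusted p of 1.2e-05, and -2.48 with an adjusted p of 6.9e-05 with flowering plant scaling. ATHB-7, the close relative of ATHB-12, was represented by 1 cluster whose best NR match is the sunflower protein HAHB-4. It had 42.6, 43.96 and 43.8 CPM in control and 43.7, 33.1 and 30.7 CPM in salt, and salt 1 lay among the control libraries. Its log2 fold change in the fit of sums was -0.28 ± 0.12 (SE) with an edgeR adjusted p of 0.051, which did not pass, and it was 0.20 with an adjusted p of 0.10 with flowering plant scaling. Without salt 1 it was -0.44 and was called lower.

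Of the class I names tied to abscisic acid signalling in Arabidopsis, ATHB-6, a negative regulator, had 2.11, 2.22 and 2.76 CPM in control and 0.994, 1.17 and 0.244 CPM in salt. Salt 3 lay under the filter level, so the ATHB-6 sum passed on its control level. ATHB-5, a positive regulator in seedlings, had 2.64, 4.14 and 2.99 CPM in control and 2.06, 1.17 and 1.63 CPM in salt. The ATHB-5 name rests on 1 cluster of 591 bases with a match score of 223, and neither a homeobox nor a leucine zipper was annotated in it. In both names the groups did not overlap. Their log2 fold changes were -1.51 ± 0.43 and -1.02 ± 0.30 (SE), with edgeR adjusted p of 0.0080 and 0.0098. Neither passed with flowering plant scaling, with adjusted p of 0.056 and 0.12, and ATHB-5 did not pass without control 2, with an adjusted p of 0.058.

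ATHB-13, known in Arabidopsis for cotyledon and leaf shape, had 55.5, 51.9 and 51.7 CPM in control and 51.4, 47.2 and 43.6 CPM in salt. The groups stood next to each other without overlap. The log2 fold change of -0.16 ± 0.08 (SE) did not pass, with an edgeR adjusted p of 0.074, and with flowering plant scaling it was 0.32 with an adjusted p of 0.0018. The 4 ATHB-13 clusters, named here after their values were seen, did not move alike. Cluster-71316.165765 was called lower under both scalings, at -1.01 and -0.54, with edgeR adjusted p of 0.0038 and 0.033. Cluster-71316.262511 was called lower in the main scaling alone, at -1.19 with an adjusted p of 0.039. Cluster-71316.134774 and Cluster-71316.45333 were called higher with flowering plant scaling alone, with adjusted p of 0.00087 and 0.045. The indica-named HOX21 clusters, whose NR matches include ATHB-13-like, summed to 10.2, 12.5 and 12.8 CPM in control and 6.94, 7.39 and 4.85 CPM in salt. They had a log2 fold change of -0.87 ± 0.18 (SE) with an edgeR adjusted p of 0.0012, and an adjusted p of 0.072 with flowering plant scaling. The japonica-named HOX21 cluster had a log2 fold change of -0.06, or 0.42 with flowering plant scaling, where it was called higher. ATHB-16, a regulator of leaf growth and flowering time in Arabidopsis, ranged from 9.56 to 10.5 CPM in control and from 7.40 to 9.91 in salt. The ATHB-16 name rests on 1 cluster with a match score of 216, in which a homeobox and a leucine zipper were annotated. ATHB-40, known from bud dormancy in Arabidopsis, ranged from 2.70 to 4.28 CPM in control and from 1.75 to 3.05 in salt. Neither ATHB-16 nor ATHB-40 passed, with log2 fold changes of -0.14 ± 0.15 and -0.34 ± 0.29 (SE) and edgeR adjusted p of 0.41 and 0.30.

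In class II, 17 of 30 clusters were tested, 5 were called lower and 0 higher by edgeR, with 1 higher at an unadjusted p under 0.05 and 1 called higher by DESeq2. The 5 lower calls were 29.4% of those tested, against 29.3% of all tested clusters. The median log2 fold change was -0.85. With flowering plant scaling 4 of 15 tested were called lower and 1 higher, against 16.5% and 33.5%.

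HAT22 is a class II repressor that in Arabidopsis is induced by drought and abscisic acid and restrains growth. Its 11 clusters summed to 46.6, 46.7 and 42.1 CPM in control and 11.1, 12.4 and 12.1 CPM in salt. The groups stood far apart, the control mean being 3.81 times the salt mean. On the log2 scale the fold change was -1.93 ± 0.09 (SE) with an edgeR adjusted p of 6.1e-08, and -1.45 with an adjusted p of 1.1e-06 with flowering plant scaling.

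Not every HAT22 cluster fell alike. Cluster-71316.71401 had 8.90, 8.16 and 7.24 CPM in control and 0.512, 1.26 and 0.729 CPM in salt. Cluster-71316.291645 had 5.81, 6.51 and 5.16 CPM in control and 0.923, 0.974 and 0.406 CPM in salt. Both stood lower in every salt library, with log2 fold changes of -3.28 ± 0.34 and -2.90 ± 0.36 (SE) and edgeR adjusted p of 0.00061 and 0.0011. Neither reached the filter level in every salt library, so both passed on their control level. The clusters with a match score of 330 split their reads differently between libraries. Cluster-71316.164594 had 15.1, 16.8 and 7.52 CPM in control and 4.72, 0 and 0 CPM in salt, while Cluster-71316.83921 had 0, 0 and 7.49 CPM in control and 0.0028, 4.52 and 3.74 CPM in salt. Alone neither was called, with edgeR adjusted p of 0.095 and 0.95. Summed over the 5 clusters of that score, the level was 15.2, 17.2 and 15.1 CPM in control and 4.84, 4.68 and 3.74 CPM in salt. The sum differed between groups far more than within them, with a log2 fold change of -1.84 ± 0.15 (SE) and an edgeR adjusted p of 2.0e-05. Sums over clusters with the same Swiss-Prot entry and match score were chosen after seeing the data. Cluster-71316.83921 is named here for its share of these reads, after its values were seen.

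**Figure D3:**
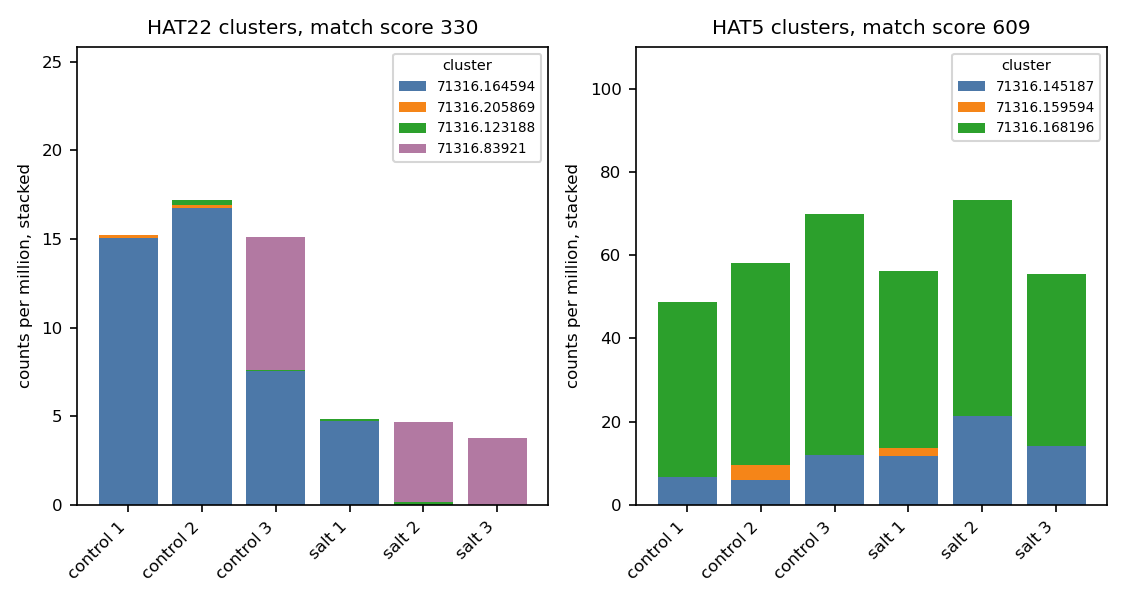
CPM per library, stacked by cluster, for the HAT22 clusters with match score 330 (left, 4 of 5 have counts) and the HAT5 clusters with match score 609 (right). On the left Cluster-71316.164594 gives way to Cluster-71316.83921 in control 3, salt 2 and salt 3 while the stack is 15.1 to 17.2 CPM in control and 3.74 to 4.84 in salt; on the right the stacks of both groups overlap.

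Over all the table, summing such clusters gave 50 HD-ZIP units, of which 12 joined 2 or more clusters. Of the 39 tested, 2 were called higher and 24 lower, against 27.6% and 37.6% of all sums tested, and 3 of the lower calls passed the filter through control libraries alone. Under flowering plant scaling 8 were called higher and 15 lower, against 38.1% and 23.1%.

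HAT14, a class II member, had 9 clusters that summed to 22.7, 23.7 and 24.5 CPM in control and 6.95, 7.98 and 7.14 CPM in salt. The groups did not overlap and the control mean was 3.21 times the salt mean. The log2 fold change was -1.68 ± 0.11 (SE) with an edgeR adjusted p of 4.2e-07, and -1.20 with an adjusted p of 1.3e-05 with flowering plant scaling. Cluster-71316.222615 held most of it, at 17.6, 17.8 and 19.9 CPM in control and 5.10, 5.89 and 5.17 CPM in salt. Its neighbour Cluster-71316.222614 was near 1 CPM in control and passed the filter through control libraries alone. Its lower call, with a log2 fold change of -2.39 and an edgeR adjusted p of 0.045, was lost in 5 of 6 fits that left out 1 library and with flowering plant scaling.

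HAT4 (ATHB-2) and ATHB-4, the Arabidopsis shade avoidance genes of class II, did not follow HAT22 and HAT14. HAT4 summed to 16.8, 17.8 and 15.8 CPM in control and 20.6, 18.5 and 18.4 CPM in salt. Every salt library stood above every control library, but the log2 fold change of 0.19 ± 0.10 (SE) did not pass, with an edgeR adjusted p of 0.10. It was 0.67 with an adjusted p of 9.6e-05 with flowering plant scaling, and the call was also higher by DESeq2, with an adjusted p of 0.0059, and with another form of the TMM factor, with an edgeR adjusted p of 0.0096. Its most abundant cluster, Cluster-71316.232579, had 9.19, 7.78 and 6.87 CPM in control and 12.4, 10.2 and 9.40 CPM in salt, with an edgeR adjusted p of 0.078. ATHB-4 had 3.05, 4.14 and 2.93 CPM in control and 2.41, 2.86 and 2.52 CPM in salt, and its log2 fold change of -0.38 ± 0.23 (SE) did not pass, with an edgeR adjusted p of 0.16. The HAT9 cluster stayed under the filter, at 0.183 to 0.703 CPM in control and 0 to 0.165 CPM in salt.

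In class IV, 5 of 7 clusters were tested, and 4 were called lower and 1 higher with both scalings, against 29.3% and 23.9% of all tested clusters, or 16.5% and 33.5% with flowering plant scaling. One of the lower calls, Cluster-106285.0, passed the filter through control libraries alone and had to be lower. The median log2 fold change was -2.30, or -1.82 with flowering plant scaling.

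GLABRA 2, which in Arabidopsis keeps root epidermal cells from forming hairs and promotes leaf hairs, summed to 7.21, 6.16 and 4.69 CPM in control and 0.639, 1.36 and 1.22 CPM in salt. The groups did not overlap, and the control mean was 5.61 times the salt mean. The log2 fold change was -2.48 ± 0.30 (SE) with an edgeR adjusted p of 3.3e-05, and -1.99 with an adjusted p of 0.00032 with flowering plant scaling. Both of its clusters, Cluster-71316.147398 and Cluster-71316.94748, fell, with log2 fold changes of -2.66 ± 0.54 and -2.30 ± 0.40 (SE) and edgeR adjusted p of 0.0068 and 0.0037. Neither cluster reached the filter level in every salt library, so both passed on their control level.

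ANTHOCYANINLESS 2, which in Arabidopsis acts in anthocyanin accumulation and root cell organisation, summed to 5.16, 5.20 and 4.71 CPM in control and 1.49, 1.36 and 1.30 CPM in salt. No salt library came near a control library. On the log2 scale the fold change was -1.85 ± 0.21 (SE) with an edgeR adjusted p of 2.4e-05, and -1.37 with an adjusted p of 0.00024 with flowering plant scaling. Its long cluster, Cluster-71316.187703 with a match score of 2504, had 3.87, 3.84 and 3.52 CPM in control and 1.49, 1.30 and 1.30 CPM in salt, with a log2 fold change of -1.45 ± 0.25 (SE) and an edgeR adjusted p of 0.0033. Cluster-106285.0, whose NR match is the related HDG1-like protein, had 1.29, 1.16 and 1.02 CPM in control and no count in salt. Against a floor of 3 counts over the salt group, it was at least 16.1-fold lower, and it could be tested only through its control libraries.

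ROC4, named for a rice class IV protein of the outermost cell layer, rested on 1 cluster with a weak match. Cluster-95937.0 is 3320 bases long with a match score of 161, the lowest in the class, and no START domain was annotated in it. It had 0.117, 0.690 and 0.410 CPM in control and 2.63, 6.95 and 3.17 CPM in salt. Every salt library stood above the control libraries, with salt 2 far above the other two. The salt mean was 10.5 times the control mean, and the log2 fold change was 3.35 ± 0.68 (SE) with an edgeR adjusted p of 0.0065. The ratio was 16.1 without control 2 and 7.14 without salt 2, and the cluster was under the FPKM filter of the limma fits. With flowering plant scaling it was 3.84 with an adjusted p of 0.0042. Clusters with a Swiss-Prot match outside flowering plants had a share of the regulator counts of 4.03%, 4.02% and 3.99% in control 1 to 3. In salt 1 to 3 the share was 7.80%, 11.5% and 11.3%. The part of that share in the rise was not tested. ROC6 stayed under the filter, at 0 to 0.242 CPM in control and 0 to 0.195 CPM in salt.

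**Figure D4:**
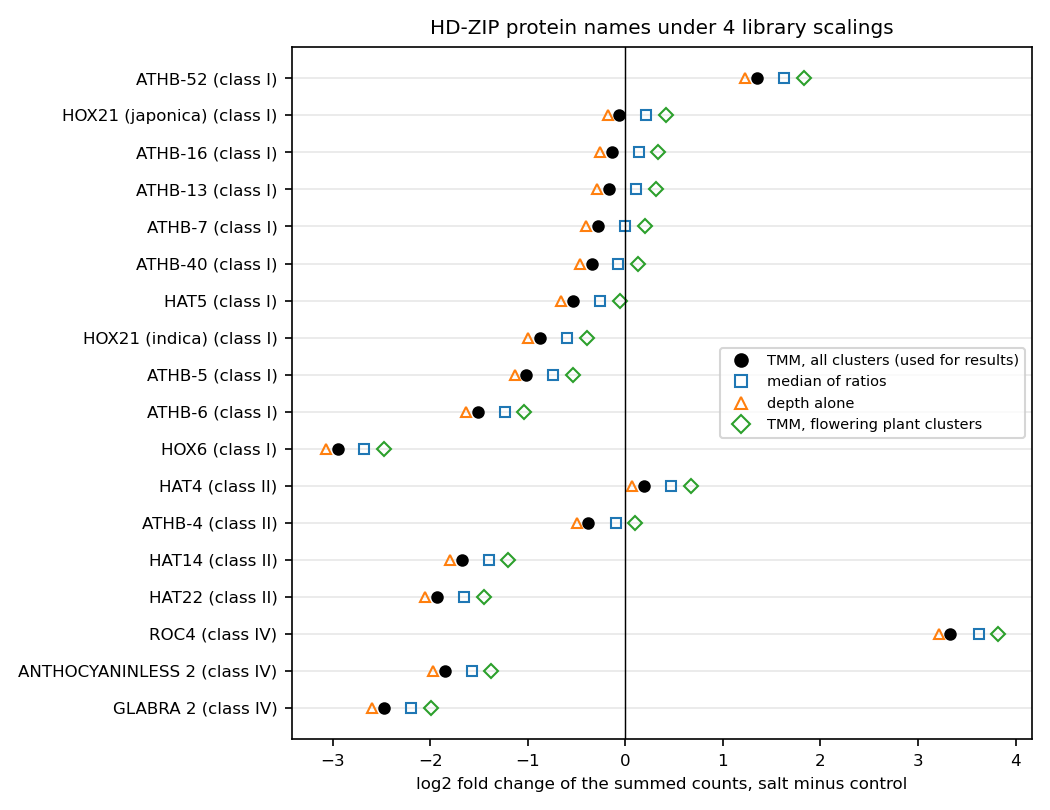
Log2 fold change (salt minus control) of the 18 tested protein name sums under 4 library scalings, 1 row per name and 1 symbol per scaling. HAT22, HAT14, HOX6, GLABRA 2 and ANTHOCYANINLESS 2 stay left of 0 and ATHB-52, HAT4 and ROC4 right of it under each scaling, while ATHB-13, ATHB-16, ATHB-7, ATHB-40, ATHB-4 and the japonica-named HOX21 lie on both sides of 0.

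Values relative to the median of all name sums agree between scalings nearly by construction, since a scaling shifts all sums alike, and are given as a description. Against that median (-0.14, or 0.37 with flowering plant scaling) HAT22 stood at -1.79 or -1.81 and HAT14 at -1.53 or -1.56 on the log2 scale. GLABRA 2 stood at -2.33 or -2.36 and HOX6 at -2.80 or -2.84. ATHB-52 stood at 1.49 or 1.46, HAT4 at 0.34 or 0.31 and HAT5 at -0.39 or -0.42. ATHB-13 stood at -0.019 or -0.050 and ATHB-16 at 0.0048 or -0.026, close to the median.

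Other homeobox clusters gave a comparison. Of HD-ZIP class III, the vascular patterning proteins, 9 of 33 clusters were tested, 7 were called lower and 0 higher by edgeR, with 0 higher at an unadjusted p under 0.05 and 0 by DESeq2. Their median log2 fold change was -1.91, and of all tested clusters 29.3% were called lower and 23.9% higher. Scaled over flowering plant clusters, 5 of 9 were called lower and 0 higher, with a median of -1.43, against 16.5% and 33.5% of all tested clusters. Of the other plant-matched homeobox clusters 52 of 77 were tested, 27 were called lower and 1 higher, with a median of -0.85, against 29.3% and 23.9% of all tested clusters. Under flowering plant scaling 17 of 51 were called lower and 2 higher, with a median of -0.37, against 16.5% and 33.5%. The differences between these groups and the HD-ZIP classes above were not tested.

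Regulators that act beside these classes in Arabidopsis were also measured. Of the abscisic acid regulators, 9 of 12 clusters were tested and 8 were called lower and 0 higher by edgeR, with 0 higher at an unadjusted p under 0.05 and 0 by DESeq2. Under flowering plant scaling 6 were called lower. Of all tested clusters 29.3% were called lower, or 16.5% under that scaling. ABSCISIC ACID-INSENSITIVE 5-like protein 5, a bZIP factor that binds abscisic acid response elements, had 26.0, 24.0 and 26.1 CPM in control and 11.4, 10.2 and 10.6 CPM in salt in Cluster-71316.164777. That cluster fell by 1.24 on the log2 scale, with an SE of 0.09 and an edgeR adjusted p of 0.00021. Under the same name, Cluster-71316.164779 had 19.96, 19.95 and 19.2 CPM in control and 4.55, 6.20 and 6.89 CPM in salt, and Cluster-71316.130369 had 9.18, 9.81 and 10.7 CPM in control and 1.69, 2.24 and 2.33 CPM in salt. Both were called lower, with edgeR adjusted p of 0.00045 and 0.00030. Cluster-71316.175929 had 1.08 to 1.58 CPM in control and 0.0649 to 0.0813 CPM in salt, and passed the filter through control libraries alone, so it had to be lower.

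Of the shade and light growth regulators, 22 of 41 clusters were tested and 7 were called lower and 0 higher by edgeR, with 0 higher at an unadjusted p under 0.05 and 0 by DESeq2. The 7 lower calls were 31.8% of those tested, against 29.3% of all tested clusters. With flowering plant scaling 1 was called lower and 1 higher of 21 tested, against 16.5% and 33.5%. The most abundant cluster, BES1/BZR1 homolog protein 2 Cluster-71316.160946, a brassinosteroid response factor by name, had 34.3, 34.6 and 28.6 CPM in control and 27.0, 33.0 and 36.0 CPM in salt. The groups overlapped, with an edgeR adjusted p of 0.91, and with flowering plant scaling it was called higher, with an adjusted p of 0.034. BES1/BZR1 homolog protein 4 was called lower in Cluster-71316.172729, at 34.6, 40.0 and 34.6 CPM in control and 23.6, 27.2 and 22.5 CPM in salt, with an edgeR adjusted p of 0.0046, but not with flowering plant scaling, with 0.52. Its Cluster-71316.190610 had 6.22, 5.92 and 5.92 CPM in control and 2.41, 1.99 and 2.66 CPM in salt, and was called lower with both, with adjusted p of 0.0021 and 0.012. Transcription factor PIF1, a light-responsive growth regulator, had 2.16, 1.95 and 1.99 CPM in control and 0.568, 0.585 and 1.06 CPM in salt in Cluster-71316.248339. It was called lower with an edgeR adjusted p of 0.016, but not with flowering plant scaling, with an adjusted p of 0.070. Salt 1 and salt 2 lay under the filter level, so the cluster passed on its control level.

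Of the epidermis and root hair regulators, 8 of 12 clusters were tested and 1 was called lower and 0 higher by edgeR, with 0 higher at an unadjusted p under 0.05 and 0 by DESeq2. Of all tested clusters 29.3% were called lower and 23.9% higher. Under flowering plant scaling 1 of 7 tested was called lower and 0 higher, against 16.5% and 33.5%. The lower call was Transcription factor EGL1, a bHLH protein that acts upstream of GLABRA 2 in Arabidopsis. It had 2.49, 2.32 and 2.27 CPM in control and 0.191, 0.275 and 0.244 CPM in salt, and it passed the filter through control libraries alone, so it had to be lower. WRKY transcription factor 44, a regulator of leaf hairs and seed coat in Arabidopsis, had 2.01, 3.64 and 3.54 CPM in control and 2.53, 0.859 and 0.0057 CPM in salt in its most abundant cluster. Its groups overlapped, with an edgeR adjusted p of 0.28. MYB-like transcription factor ETC1, which promotes root hairs, had 2.61, 3.10 and 2.64 CPM in control and 2.87, 1.82 and 2.23 CPM in salt in its most abundant cluster, and the groups overlapped.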

How the data were processed

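RNA from 3 control and 3 salt-watered root samples was sequenced as Illumina TruSeq libraries, per the labels' protocols. Bowtie2 2.0.6 and TopHat2 2.0.12 were used, per the submitters' processing notes. Which program assembled the clusters and which counted reads is not given in the sources used here. The authors deposited expected counts and FPKM (fragments per kilobase and per M mapped, M for mega) for 10744 regulator clusters, with cluster length, Swiss-Prot match score, and their own calls (UP or DOWN) with a q-value and a log2 ratio. The authors also deposited FPKM for all 469059 clusters. No reference genome was used, so no position or sequence is given.

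Expected counts (49.3% not whole) were rounded to whole numbers. The count table holds part of each library, so depth was taken as the slope of count over FPKM on cluster length, for clusters of at least 200 counts and 1000 bases. Library size was this depth times a TMM factor from the FPKM of all clusters, computed with equal library sizes, since FPKM is already per depth. The depth estimator and this form of TMM were settled after the data and the resulting call counts had been seen, and the other forms are given among the alternatives. Flowering plant scaling used a TMM factor from the counts of flowering plant clusters in the table of regulators, not from the FPKM of all clusters. Counts were tested with edgeR 4.0.16 (R 4.3.3; quasi-likelihood F-test, filterByExpr defaults), adjusted by Benjamini-Hochberg over the whole table, with calls at an adjusted p under 0.05. Each SE is approximate, the size of the log2 fold change over the square root of F. Alternatives used DESeq2 1.42.0 and limma 3.58.1 on log2(FPKM + 1) and log2(FPKM + 0.1). Tested on simulated data, whose fold sizes were raised after a first run, the fit recovered large changes but missed many of 2-fold.

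The members and lists were chosen with earlier results of these data known. Class was assigned by protein name. Text names, per class, the 3 tested clusters of highest mean CPM, up to 4 called rises and up to 4 called falls of largest size, every protein name that passed the filter, and from each pathway list the 2 most abundant clusters and up to 2 largest called. Sums over clusters with the same match score and counts per class were added after seeing the data.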

Additional observations from a re-analysis of the deposited data

How the results depend on the processing

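Higher calls among HD-ZIP clusters (3) numbered 5 with DESeq2 size factors and with the DESeq2 test, 7 with flowering plant scaling and 1 with limma at either pseudocount, and lower calls (19) numbered 12 with flowering plant scaling. The median log2 fold change of -0.87 became -0.66 with DESeq2 size factors, -0.99 with depth alone, -0.52 with flowering plant scaling, -1.01 without a filter and with copies summed, and -1.13 with limma on log2(FPKM + 0.1). TMM against the FPKM column sums, tried with the other forms of TMM after seeing the data, gave 5 higher and 14 lower calls, a median of -0.74, 6 lower calls in class I and 1 higher call in class II, and HAT4 in sum was then called higher (0.39). TMM corrected for those sums gave 3 higher and 19 lower calls. Leaving out 1 library at a time gave 2 to 3 higher calls, 14 to 20 lower calls and medians from -1.18 to -0.83. Protein name sums (2 higher, 9 lower) numbered 5 and 5 with flowering plant scaling, and 2 higher and 9 to 13 lower with 1 library left out. Class I (2 higher, 10 lower) had 1 higher with depth alone, without a filter, with the replicate block, with limma at either pseudocount and with copies summed, and 5 with flowering plant scaling. Its lower calls numbered 6 with DESeq2 size factors, without a filter and with the block, and 4 with flowering plant scaling; with 1 library left out it had 1 to 2 higher and 6 to 10 lower. Class II (0 higher, 5 lower) had 1 higher with DESeq2 size factors, flowering plant scaling and the DESeq2 test, and 8 lower with copies summed. Class IV (1 higher) had 0 higher with limma at either pseudocount, where ROC4 was under the FPKM filter. Of the tested members, 11 clusters changed sign with flowering plant scaling, 10 of them called under neither scaling, and named results without a call also changed sign under other settings. Among named results called in the fit of either setting, the signs that turned were those of HAT5 Cluster-71316.170762 (0.20 with flowering plant scaling, 0.00028 with DESeq2) and, with flowering plant scaling, BES1/BZR1 homolog protein 2 Cluster-71316.160946 (0.47), ATHB-13 (0.32) and japonica-named HOX21 (0.42). The cause was not tested.

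Samples share only a replicate number: deviations of same-numbered libraries correlated at 0.028, 0.037 and 0.0022, and with the replicate block 2 clusters were called higher and 14 lower. Of the 22 members under the filter, 21 were fitted without it, with 1 called lower, and by DESeq2, with 3 called lower and 9 given no adjusted p.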
